A study of Rattus norvegicus with 24 samples.

Results

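Brain-derived neurotrophic factor and the receptors it belongs with were followed across bulk RNA sequencing of rat medial prefrontal cortex. The members were 3 genes, 1 ligand and 2 receptors, out of 32883 in the tables: Bdnf (ENSRNOG00000047466), Ntrk2 (ENSRNOG00000018839) and Ntrk3 (ENSRNOG00000018674). They were chosen by identity and not by their values, though with earlier results of these data known. The tables give Ensembl IDs without names. These names came with the choice of members, and they were not checked here, because the reference table used holds 0 Ensembl IDs.

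Tissue of both hemispheres was taken at postnatal day 45 from offspring of the Sprague Dawley strain. Delivery had been electively induced with oxytocin, a hormone that drives contractions of the uterus, and saline served as the control. The labels give 4 groups of 6 libraries: oxytocin or saline in males, and oxytocin or saline in females. The series text speaks of separate animals, but the labels name no litter, so animals that shared a mother would count as separate replicates. For 24 of 24 libraries the name of the deposited file disagrees with the label in both sex and treatment. Groups are therefore called by their labels throughout, and by the file names every treatment and sex difference given here would be turned, while the difference of the oxytocin effect between the sexes would keep its sign.

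The neurotrophins are secreted growth factors that support the survival of neurons, the growth of dendrites and the strengthening of synapses. Bdnf encodes the member of the family that active excitatory neurons of the cortex release. Its receptor TrkB, the product of Ntrk2, is a tyrosine kinase whose full-length form signals in neurons, while astrocytes carry mainly a truncated form without the kinase. Ntrk3 encodes TrkC, the receptor for neurotrophin-3, which also has full-length and truncated forms. A gene's reads here sum over all such forms. In bulk tissue, fewer cells of a type and less RNA per cell cannot be told apart.

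Bdnf itself is transcribed from several alternative starts, each with its own promoter. The RefSeq promoter table (GRCr8) lists 6 for it. The stretch before 1 of them is shown because it holds the letters TCACGTCA, a form of the calcium and cyclic AMP response element through which neuronal activity is known to drive this gene. Counts per gene cannot separate this start from the others. It covers chr3:116637758-116637857 of GRCr8 on the plus strand, the 100 bases before start 4, and the capitals mark TCACGTCA.

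Bdnf start 4: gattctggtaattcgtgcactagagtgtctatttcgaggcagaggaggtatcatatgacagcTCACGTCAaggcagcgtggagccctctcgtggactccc

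The match began 38 bases before the start. On both strands, TCACGTCA occurred in the 250 bases before 1 of the 6 Bdnf starts and before 0.350% of 33469 starts in the table. The palindromic form TGACGTCA was before 0 of the 6 and before 1.59% of all. The shorter TGACG, which lies within both on 1 strand or the other, was before 1 of the 6, inside the match shown, and before 18.2% of all. These are matches of letters only.

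The libraries held 15.9 to 24.3 M estimated reads, and 14930 genes passed the filter on low counts, all 3 members among them. Bdnf had 256 to 655 reads per library, Ntrk3 482 to 821 and Ntrk2 10207 to 18262. Oxytocin libraries labelled female were the shallowest group, at 17.4 ± 0.888 M reads against 20.2 ± 2.18 M in saline (SD, n = 6 each). None of the 33 markers of cell types and regions listed for a check of the tissue could be matched to an ID (0 of 33), so the tissue label was not checked. The same held for the 70 other genes of the neurotrophin pathway (0 of 70 matched), and they were not tested.

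Per length of transcript, the TrkB receptor gene stood far above its ligand. Deposited TPM divides reads by the deposited effective length of the gene in each library. On that scale Ntrk2 was at 182 ± 15.7, Ntrk3 at 26.8 ± 3.15 and Bdnf at 12.9 ± 2.71 (SD, n = 24 each). The ratio of Ntrk2 to Bdnf in TPM was 14.7 ± 3.18, and it ran from 9.64 in a saline library labelled male to 26.2 in an oxytocin library labelled female. The ratio of Ntrk2 to Ntrk3 was steadier, at 6.83 ± 0.489, with 5.85 and 7.81 as its ends (SD, n = 24). In each of the 24 libraries the order was thus Ntrk2, Ntrk3, Bdnf.

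Pooled over the 4 groups, the ligand varied more between animals than either receptor. Within groups, the coefficient of variation of the level in CPM (counts scaled by library total and TMM factor) was 18.1% for Bdnf, 10.3% for Ntrk3 and 6.69% for Ntrk2. Counting of reads alone gives 4.59%, 3.96% and 0.870% at these depths. The exception by group was saline in labelled females, at 18.1% for Ntrk3 and 13.8% for Bdnf. Bdnf varied more than 94.7% of the 4761 tested genes within 2-fold of its level, whose median was 8.02%. For Ntrk3 this share was 78.5% of 4695 genes, and for Ntrk2 72.9% of 391 genes.

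In labelled males Bdnf was at 24.6, 27.8 and 38.7 CPM (lowest, median, highest) with saline, and at 22.3, 26.2 and 28.8 CPM with oxytocin. In libraries labelled female it stood at 19.1, 21.2 and 27.0 CPM with saline and at 14.1, 22.4 and 32.5 CPM with oxytocin. Treated and control libraries overlapped in both labelled sexes, with 3 of 6 oxytocin libraries inside the range of saline in males and 4 of 6 in females. For 0 of 3 members were the groups of 6 apart without overlap, against 1.19% of all tested genes in labelled males and 0.73% in labelled females. The group means ran from 29.0 ± 5.10 CPM (saline, labelled male) through 26.0 ± 2.81 (oxytocin, labelled male) and 22.5 ± 6.13 (oxytocin, labelled female) to 21.8 ± 3.01 (saline, labelled female; SD, n = 6 each). No 2 neighbours in that order differed by more than the larger of their SDs.

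Ntrk2 was at 677, 705 and 784 CPM (lowest, median, highest) with oxytocin in labelled males, against 677, 710.4 and 724 CPM with saline. In those labelled female the values were 629.5, 661 and 710.4 CPM with oxytocin and 574, 668 and 754 CPM with saline. All 6 oxytocin libraries labelled female lay inside the range of their saline controls, the group with the lowest library of all 24. The means were 712 ± 40.5, 706 ± 17.6, 668 ± 29.3 and 665 ± 75.2 CPM in that order of groups (SD, n = 6 each). Only the step between saline in labelled males and oxytocin in labelled females, 38.3 CPM, exceeded the larger SD of its neighbours, 29.3 CPM.

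Ntrk3 had the narrowest spread of the members in oxytocin libraries labelled male, at 33.8, 34.6 and 35.4 CPM (lowest, median, highest). Its coefficient of variation there was 1.84%, under the 3.96% that counting of reads alone gives at its mean depth over 24 libraries. So narrow a spread in 6 libraries does not show that the gene was steady in this group. With saline in labelled males Ntrk3 ran through 30.8, 34.6 and 36.6 CPM. With oxytocin in labelled females the values were 30.5, 31.8 and 37.5 CPM, and with saline 24.5, 31.3 and 39.5 CPM. In both labelled sexes all 6 oxytocin libraries lay inside the range of saline. The means, 34.7 ± 0.639, 34.2 ± 2.40, 33.2 ± 3.03 and 31.2 ± 5.64 CPM in that order (SD, n = 6 each), differed between neighbours by less than the larger SD.

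**Figure D1:**
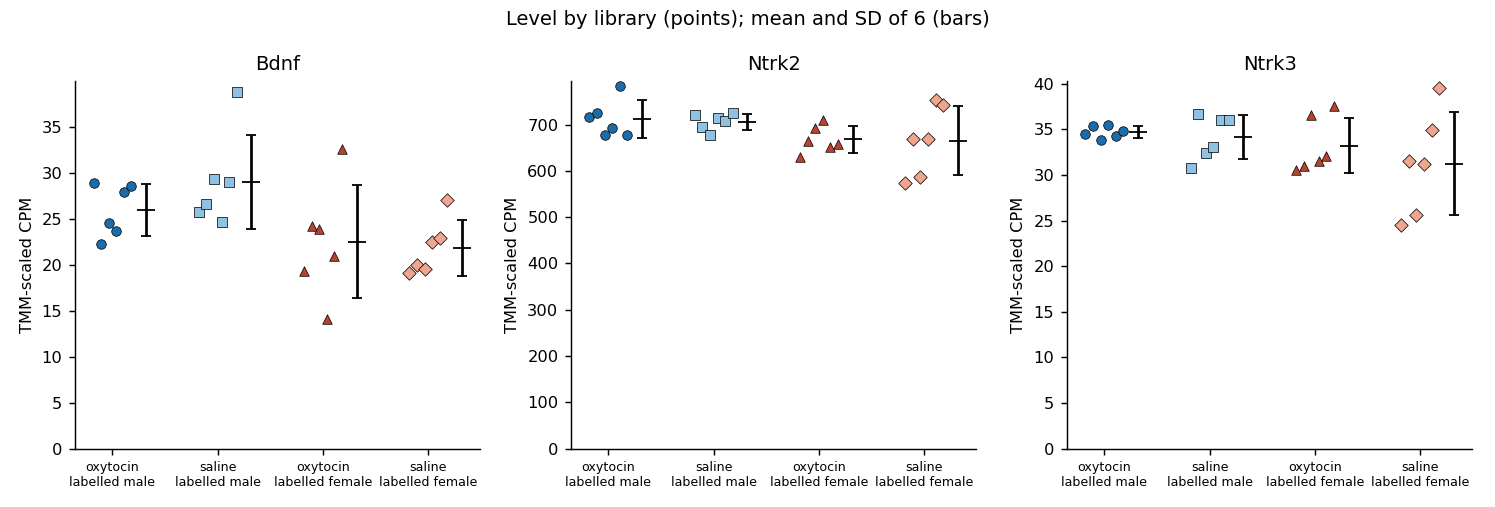
Level of each gene in TMM-scaled CPM (vertical axes, starting at 0) by library; each point is 1 of 6 libraries per labelled group, and the bars beside the points give the mean and SD. Bdnf sits higher in most libraries labelled male, and the saline group labelled female spreads widest for Ntrk2 (574 to 754 CPM) and Ntrk3 (24.5 to 39.5 CPM).

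The series asked how gene expression in offspring of either sex differs after oxytocin. Neither the ligand nor the receptors passed the test in any treatment comparison. In labelled males, 0 of 3 members were called by edgeR at an adjusted p of at most 0.05, against 0.161% of all tested genes (24, and 0 to 106 with 1 library left out), and 0 of 3 had an unadjusted p under 0.05, against 11.2%. Bdnf had a log2 fold change of −0.16 (SE 0.14, 95% interval −0.45 to 0.14, edgeR adjusted p = 0.753). Without the saline library with the highest Bdnf level the value was −0.06. Ntrk2 had 0.01 (SE 0.05, interval −0.10 to 0.12, adjusted p = 0.964) and Ntrk3 0.02 (SE 0.08, interval −0.15 to 0.19, adjusted p = 0.958). The interval of Ntrk2 thus ends at 0.933-fold and 1.09-fold, while that of Bdnf reaches from 0.734-fold to 1.10-fold.

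In labelled females 0 of 3 members were called, against 0.0067% of all tested genes, and 0 of 3 had an unadjusted p under 0.05, against 12.4%. Bdnf had a log2 fold change of 0.04 (SE 0.14, interval −0.25 to 0.34, edgeR adjusted p = 0.933). Its sign hung on single libraries: it was −0.09 without the oxytocin library with the highest level and 0.15 without the one with the lowest. Ntrk2 had 0.01 (SE 0.05, interval −0.11 to 0.12, adjusted p = 0.982) and Ntrk3 0.09 (SE 0.08, interval −0.08 to 0.26, adjusted p = 0.702). Leaving out 1 library moved the value of Ntrk3 from 0.03 (without saline female 1) to 0.17 (without saline female 6, unadjusted p = 0.0353, edgeR adjusted p = 0.273). DESeq2 and limma with sample weights also called 0 of 3 members in both labelled sexes.

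All comparisons draw on the same 24 libraries. Averaged over the labelled sexes, 0 of 3 members were called against 0.362% of all genes (54, and 9 to 334 with 1 library left out), and 0 of 3 had an unadjusted p under 0.05 against 16% of all genes. The log2 fold changes were −0.06 for Bdnf (interval −0.26 to 0.15), 0.01 for Ntrk2 (−0.07 to 0.09) and 0.06 for Ntrk3 (−0.07 to 0.18), with edgeR adjusted p of 0.843, 0.947 and 0.691. The median over all tested genes was 0.00. The difference of the oxytocin effect between labelled males and females was called for 0 of 3 members and 0% of all genes, and 0 of 3 had an unadjusted p under 0.05, against 7.29%. DESeq2 and limma called 0 of 3 members here as well. The difference was −0.20 for Bdnf (SE 0.20, interval −0.62 to 0.22, edgeR adjusted p = 0.860), 0.01 for Ntrk2 and −0.07 for Ntrk3. For Bdnf 1 library moved this difference from −0.06 (without oxytocin female 6) to −0.30 (without oxytocin female 4), and the average effect from −0.12 to −0.0046 (without the same libraries).

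Between the labelled sexes no member passed the test either, though the log2 fold change of the ligand was the largest of its 5 comparisons. Of the 12 libraries labelled male, 10 lay above the median Bdnf level of all 24, and 2 of the 12 labelled female did. For Ntrk2 and for Ntrk3 these counts were 8 and 4. Bdnf was 1.24-fold higher in libraries labelled male by the fit (log2 fold change 0.31, SE 0.10, interval 0.10 to 0.52, unadjusted p = 0.00564, edgeR adjusted p = 0.261). Across all tested genes, 2.12% had a lower p. Ntrk2 had a log2 fold change of 0.09 (SE 0.04, interval 0.01 to 0.17, edgeR adjusted p = 0.425) and Ntrk3 of 0.10 (SE 0.06, interval −0.02 to 0.22, adjusted p = 0.600).

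At the adjusted threshold 0 of 3 members were called between the labelled sexes, against 0.228% of all tested genes, and DESeq2 and limma with sample weights called 0 of 3 as well. At an unadjusted p under 0.05 there were 2 of 3 in edgeR, Bdnf and Ntrk2, against 9.99% of all genes. Leaving out each library in turn left the log2 fold change of Bdnf between 0.25 and 0.37, with adjusted p between 0.0852 and 0.408. By the file names Bdnf would be higher in females.

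**Figure D2:**
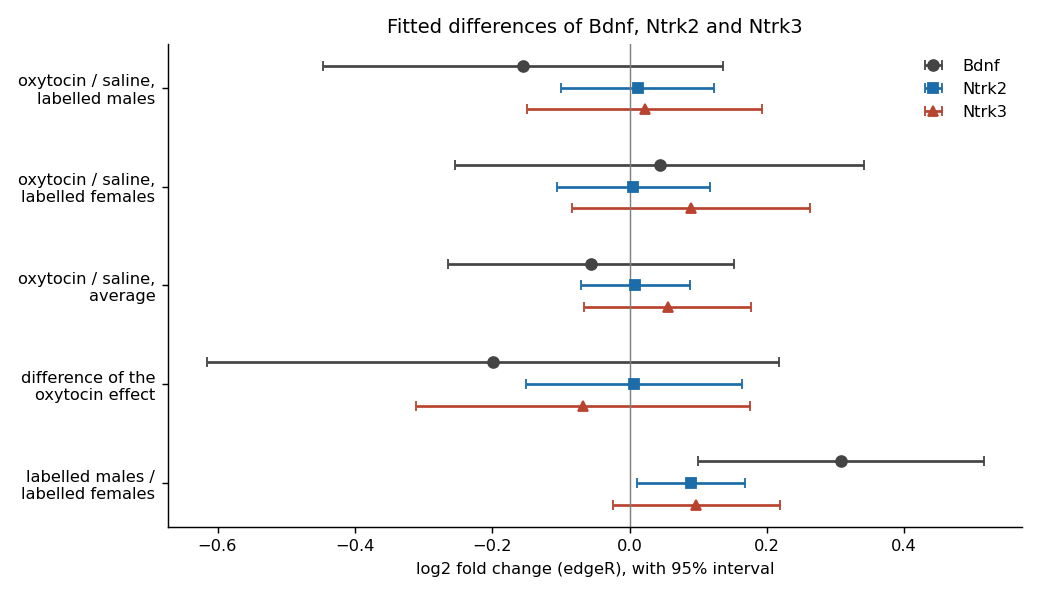
Log2 fold change (horizontal axis) of the 3 genes in each fitted comparison (rows), with 95% intervals from the edgeR fit over all 24 libraries; the row of the oxytocin effect is labelled males minus labelled females. The intervals of all treatment rows span 0, and in the row of the labelled sexes those of Bdnf (0.10 to 0.52) and Ntrk2 (0.01 to 0.17) do not, though neither passed the adjusted threshold.

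How ligand and receptors varied together between animals was asked with correlations of log2 CPM within each group of 6. In the saline group labelled female the 3 genes ordered the libraries alike. Its libraries 1 to 6 had Ntrk2 at 574, 668, 586, 668, 754 and 742 CPM. In the same order Ntrk3 stood at 24.5, 31.5, 25.6, 31.2, 34.9 and 39.5 CPM and Bdnf at 19.1, 19.9, 19.5, 22.5, 23.0 and 27.0 CPM. Libraries 1 and 3 were thus lowest for all 3 genes, and libraries 5 and 6 highest.

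For Ntrk2 and Ntrk3 in that group Pearson's r was 0.97 (exact permutation p = 0.0139, adjusted p = 0.0833 within a family of 12, all two-sided) and Spearman's rho 0.89 (exact p = 0.0333, adjusted p = 0.133). For Bdnf and Ntrk3 r was 0.91 (exact permutation p = 0.00417, adjusted p = 0.05, at the threshold) and rho 0.94 (exact p = 0.0167, adjusted p = 0.1). For Bdnf and Ntrk2 r was 0.83 (exact permutation p = 0.0347, adjusted p = 0.139) and rho 0.94 (exact p = 0.0167, adjusted p = 0.1). Without the 2 libraries farthest from the median of the first gene of each pair, r over the 4 left was 0.84, 0.77 and 0.80 in the same order.

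In the other 3 groups r was lower for every pair. For Ntrk2 and Ntrk3 it was −0.08 (oxytocin, labelled male), 0.03 (saline, labelled male) and 0.25 (oxytocin, labelled female), with exact permutation p of 0.896, 0.949 and 0.642. For Bdnf and Ntrk3 it was −0.47, 0.47 and 0.69 in the same order of groups, with exact permutation p of 0.324, 0.361 and 0.139. For Bdnf and Ntrk2 it was 0.18, 0.20 and −0.35, with exact permutation p of 0.769, 0.675 and 0.506. All 9 had an adjusted p above the threshold, the lowest being 0.417 (exact permutation tests). Some of these r hung on few libraries: over the 4 left without the 2 farthest, Bdnf and Ntrk3 had 0.90 in oxytocin libraries labelled male. Bdnf and Ntrk2 then had 0.88 in oxytocin libraries labelled female and −0.63 with saline in labelled males. The spread of the genes differed between groups as well. With saline in labelled females the coefficient of variation was 18.1% for Ntrk3, 11.3% for Ntrk2 and 13.8% for Bdnf. In the order of the other 3 groups above it was 1.84%, 7.02% and 9.13% for Ntrk3 and 5.68%, 2.50% and 4.38% for Ntrk2. For Bdnf these were 10.8%, 17.6% and 27.3%. The 1.84% of Ntrk3, in oxytocin libraries labelled male, lies under the 3.96% that counting of reads alone gives. No r with Ntrk3 in that group therefore shows a relation or its absence. The part of the spread in the differing r was not tested. Whether the correlation itself differed between groups was not tested.

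Over all 24 libraries, as deviations from the group means, 2 of the 3 pairs passed. Ntrk2 and Ntrk3 had r = 0.71 (permutation test within groups, two-sided p = 0.00897, adjusted p = 0.0135 over 3 tests) and rho = 0.51 (permutation p = 0.0276, adjusted p = 0.0414). Bdnf and Ntrk3 had r = 0.55 (permutation p = 0.00249, adjusted p = 0.00747) and rho = 0.54 (permutation p = 0.0120, adjusted p = 0.0361). Bdnf and Ntrk2, the ligand and its own receptor, had r = 0.21 (permutation p = 0.280, adjusted p = 0.280) and rho = 0.22 (permutation p = 0.320, adjusted p = 0.320). What a replicate number marks is not given in the labels. With that number as a block, r for Bdnf and Ntrk3 was 0.37 (permutation adjusted p = 0.172), so this pair no longer passed. Ntrk2 and Ntrk3 then had 0.71 (permutation adjusted p = 0.00642) and Bdnf and Ntrk2 0.18 (permutation adjusted p = 0.469). The permutations kept the groups but not the block, so these p are not a strict test with the block.

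Many genes vary together in such data, so each r was set beside those of all tested genes. To Ntrk2, 1.26% of genes had an r at least as high as that of Ntrk3. To Bdnf, 2.57% of genes reached the r of Ntrk3, and 24.2% that of Ntrk2. Without the 2 libraries farthest from the median on the x axis, r was 0.52 for Ntrk2 and Ntrk3 (permutation p = 0.0787), so this relation rested on those libraries in part. For Bdnf and Ntrk3 r was then 0.56 (permutation p = 0.00842), and for Bdnf and Ntrk2 0.50 (permutation p = 0.0173).

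No pair passed without the saline group labelled female. Without its 6 libraries, a choice made after seeing the values, Ntrk2 and Ntrk3 had r = 0.11 over 18 libraries (permutation p = 0.665, adjusted p = 0.739). Bdnf and Ntrk3 kept r = 0.55, with a permutation p of 0.0729 and an adjusted p of 0.219, and Bdnf and Ntrk2 had r = −0.09 (permutation adjusted p = 0.739). The value for the 2 receptors also depended on the scale: in log2 TPM, which divides by the deposited effective length in each library, it was 0.43 over the same 18 libraries (permutation p = 0.124, adjusted p = 0.210).

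**Figure D3:**
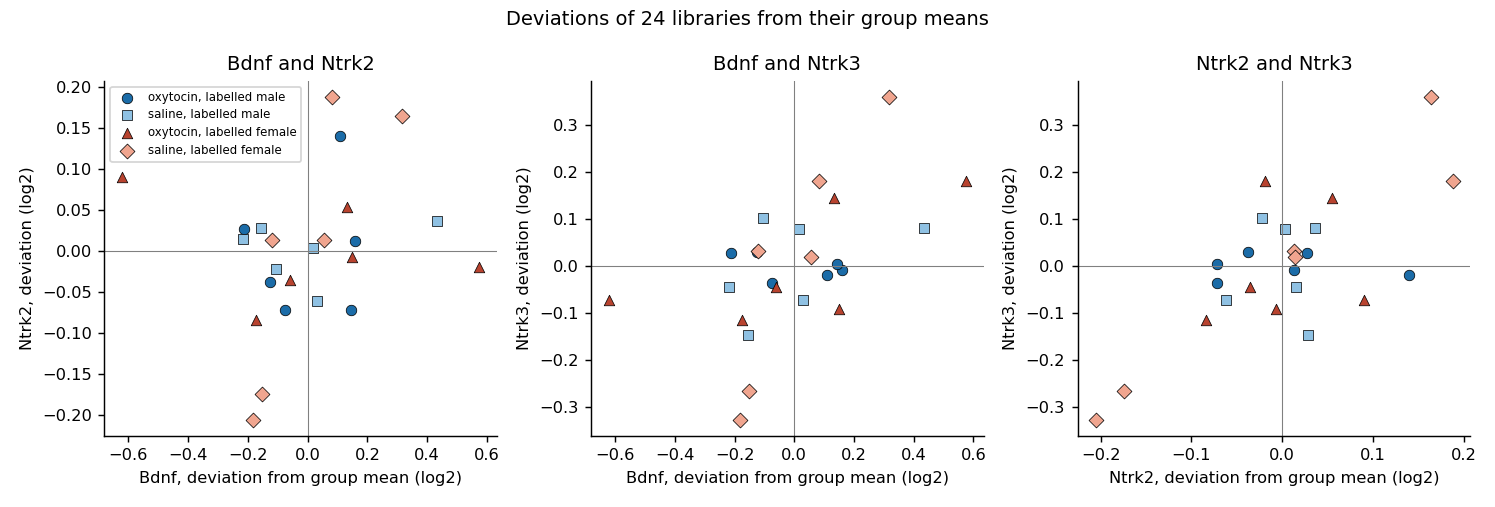
Deviation of each library from its group mean, in log2 CPM, for the 3 pairs of genes; each point is 1 of 24 libraries, coloured by labelled group. In the panel of Ntrk2 and Ntrk3 the saline libraries labelled female hold both ends of the diagonal, and the other 18 libraries show little slope (r = 0.11).

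Library depth and the main axis of variation over all genes were set beside these relations. The first principal component of the deviations of all tested genes held 8.71% of their variance. Ntrk2 correlated with it at r = 0.79 (permutation p = 0.000820, adjusted p = 0.00492 over 6 tests) and rho = 0.65 (permutation p = 0.00326, adjusted p = 0.0196). Ntrk3 did so at r = 0.77 (permutation p = 0.00344, adjusted p = 0.0103) and rho = 0.62 (permutation p = 0.00716, adjusted p = 0.0215). Only 1.57% and 2.50% of tested genes had an r as far from 0. The ends of this component were saline libraries labelled female, numbers 1 and 5. Bdnf had r = 0.35 and rho = 0.42 (permutation adjusted p = 0.0934 and 0.0966).

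With that component removed, Ntrk2 and Ntrk3 had r = 0.27 (permutation adjusted p = 0.333), Bdnf and Ntrk3 0.47 (permutation adjusted p = 0.105) and Bdnf and Ntrk2 −0.13 (permutation adjusted p = 0.588). The component was computed from genes that include the members, and its part in the relations was not otherwise tested. With the log2 library total the members had r of −0.22 (Bdnf), −0.05 (Ntrk2) and −0.16 (Ntrk3), with permutation adjusted p of 0.377, 0.840 and 0.615 and rho of −0.05, −0.16 and −0.20.

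The saline group labelled female was also left out here, again a choice made after seeing the values. The first component of the other 18 libraries was a different axis, with r = 0.19 to that of all 24 over the shared libraries, and it held 10.3% of the variance. Bdnf correlated with it at r = 0.88 (permutation p = 0.000110, adjusted p = 0.000660 over 6 tests), Ntrk3 at 0.34 and Ntrk2 at −0.26 (permutation adjusted p = 0.637 for both). Of all tested genes, 0.0804% had an r as far from 0 as Bdnf, 35.5% as Ntrk3 and 48.2% as Ntrk2. Bdnf is itself among the genes that make up this component. Its deviations were largest in oxytocin female 4 (−0.62 in log2 CPM), oxytocin female 6 (0.57) and saline male 6 (0.43). The part of these libraries in its r to the component was not tested.

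**Figure D4:**
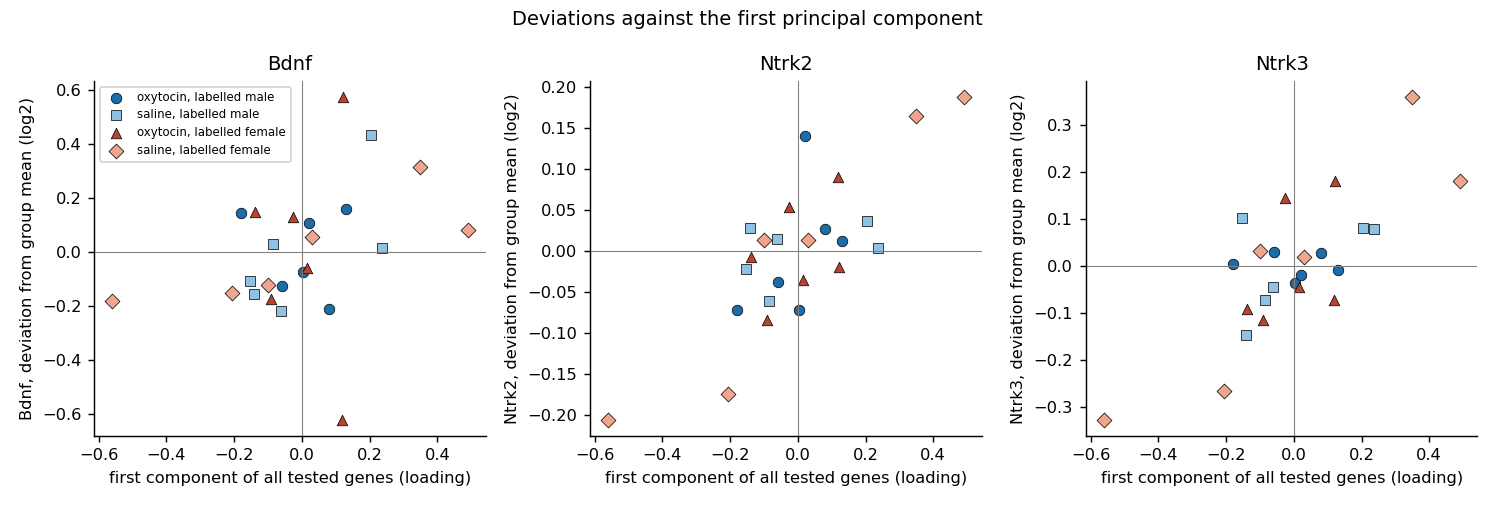
Deviation of each gene from its group mean in log2 CPM (vertical axes) against the library's loading on the first principal component of all 14930 tested genes (horizontal axes), 24 libraries coloured by labelled group. Ntrk2 and Ntrk3 rise along the component (r = 0.79 and 0.77), whose ends are saline libraries labelled female, and Bdnf scatters more widely (r = 0.35).

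Genes whose deviations were most like those of the members over the 24 libraries carry no name here. For Bdnf they were ENSRNOG00000015719 (r = 0.87, 119 CPM on average) and ENSRNOG00000046667 (r = 0.85, 19.6 CPM), and the most opposed were ENSRNOG00000061348 (r = −0.85) and ENSRNOG00000060105 (r = −0.82). For Ntrk2 they were ENSRNOG00000052129 (r = 0.89) and ENSRNOG00000011775 (r = 0.86), with ENSRNOG00000018935 (r = −0.83) and ENSRNOG00000052226 (r = −0.81) most opposed. For Ntrk3 they were ENSRNOG00000029184 (r = 0.89) and ENSRNOG00000016863 (r = 0.87), with ENSRNOG00000047931 (r = −0.83) and ENSRNOG00000001551 (r = −0.80) most opposed. These are the ends of the range over all tested genes, and they are a description.

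The tables hold a further measure, a length for each gene in each library. It differed between libraries for all 3 members, as it did for 26.8% of tested genes, so it is not the length of 1 fixed gene model. The length lay between 3961 and 4051 bases for Bdnf, 6186 and 6368 for Ntrk2 and 2050 and 2156 for Ntrk3. How it was computed is not given in the labels or headers.

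Bdnf had a length of 4019 ± 25.7 bases with oxytocin and 3987.5 ± 20.7 with saline in labelled females, a difference of 31.8 bases (SD, n = 6 each; exact permutation p = 0.0476, two-sided; adjusted p = 0.247 in a family of 6). In labelled males it was 4027 ± 15.7 against 4016 ± 8.55 bases (exact permutation p = 0.152, adjusted p = 0.247). For Ntrk2 the means lay within the spread, at 6256 ± 52.5 against 6291 ± 29.9 bases in labelled males and 6252 ± 44.8 against 6303 ± 54.1 in labelled females (exact permutation p = 0.177 and 0.106, adjusted p = 0.247 each). Ntrk3 stood at 2101 ± 17.9 against 2118.5 ± 25.0 bases and at 2080 ± 15.9 against 2084 ± 28.2 (exact permutation adjusted p = 0.247 and 0.801). No difference in length passed the adjusted threshold.

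**Figure D5:**
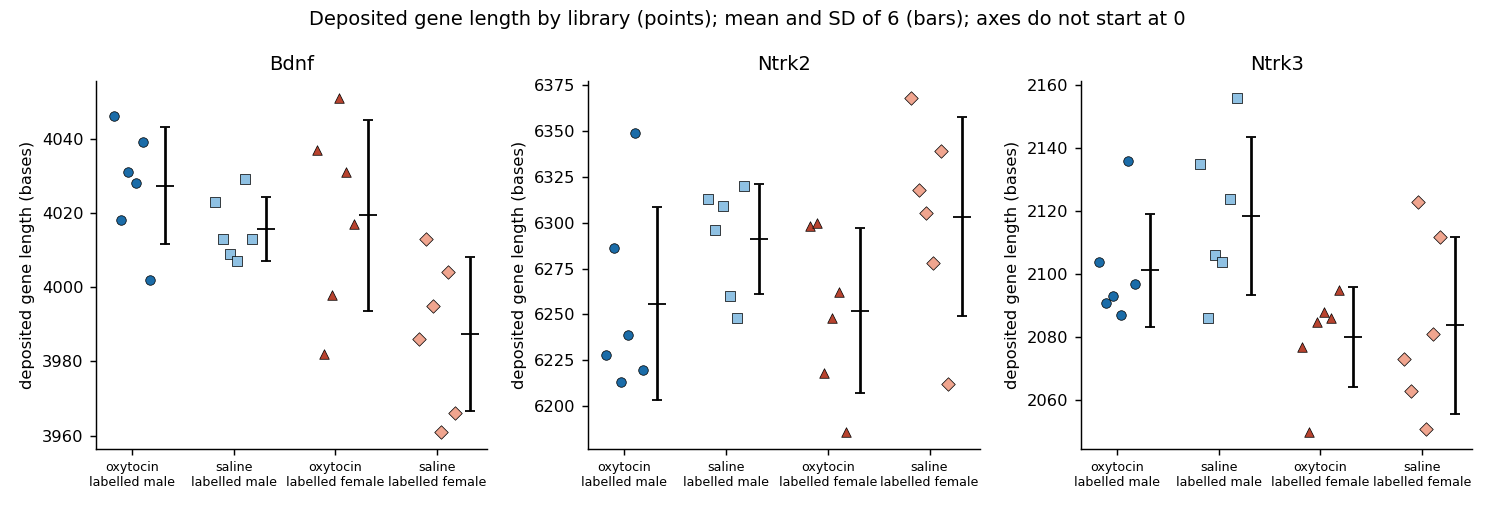
Deposited gene length in bases (vertical axes, which do not start at 0) by library; each point is 1 of 6 libraries per labelled group, and the bars give the mean and SD. Bdnf lies lowest in the saline group labelled female (3987.5 ± 20.7 bases), with overlap of the groups in every panel.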

How the data were processed

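Each of the 24 deposited tables has 1 line per Ensembl gene with its reads as an estimated count, its TPM and 2 lengths (full and effective), per the file headers. Estimated counts, as deposited, are partly fractional and were rounded before testing. TPM values, as deposited, were used for levels between genes and as an alternative scale. The tools named are DRAGEN and bcl2fastq and the build Rnor_6.0, per the submitters' processing notes. For versions, annotation and strand setting, nothing is given in the sources used here. Oligo-dT selection is per the labels' protocols.

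Genes were kept by filterByExpr (minimum count 10, minimum total 15). Counts were TMM-scaled and fitted with edgeR 4.0.16 in R 4.3.3 by quasi-likelihood with robust dispersion, 1 mean per group over 24 libraries. Calls required a p of at most 0.05 after Benjamini-Hochberg adjustment over 14930 genes. The test was checked on simulated data. Intervals are the fold change ± the t quantile times its SE. Correlations used log2 CPM (prior count 2), all 720 pairings within a group, or 100000 permutations within groups, with scipy 1.17.1. Alternatives were RLE factors, other filters, length offsets, a replicate block, DESeq2 1.42.0, limma 3.58.1, TPM with a pseudocount of 1, 1 labelled sex alone and each library left out. Named genes are the members and, for each, the 2 with the highest and the 2 with the lowest r. The pathway and marker lists were not tested.

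No pair of libraries in a group agreed within sampling noise (lowest chi-square per gene 4.93), and p-values measure the spread between these libraries. A count of 0 allows up to 3 reads, 0.123 to 0.189 CPM by library, counting error only. The members and lists were chosen with earlier results of these data known.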

Additional observations from a re-analysis of the deposited data

Results flagged for a closer look

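Of 24 sets of 6 libraries (level and deposited length of 3 genes in 4 groups), 2 held a library far from the other 5, and chance alone would give about 1.2. For Bdnf, saline male 6 stood at 38.7 CPM, the next at 29.3 CPM. This library was the shallowest of all 24, at 15.9 M reads. In deposited TPM its Bdnf level was nearer the others, at 18.4 beside 16.2 in saline male 5, the next. For the deposited length of Ntrk3, oxytocin male 5 stood at 2136 bases, the next at 2104.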

How the results depend on the processing

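The alternatives without the saline group labelled female were chosen after seeing the data. No member was called in any comparison under any tool, filter, scaling or left-out library. Signs of log2 fold changes turned only where the main value was smaller than its SE. The length difference of Ntrk3 in labelled females turned as well. The difference of the oxytocin effect for Ntrk2 was −0.011 in limma against 0.0064. With 1 library left out, log2 fold changes of Ntrk2 ran from −0.0176 to 0.0261 in labelled males, −0.0337 to 0.0443 in labelled females, −0.0109 to 0.0281 on average and −0.0324 to 0.0456 for the difference, those of Ntrk3 from −0.00605 to 0.0436 in labelled males, those of Bdnf from −0.0901 to 0.15 in labelled females, and the length of Ntrk3 in labelled females from −10.2 to 4.17 bases.

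Correlations moved more. On the TPM scale Bdnf and Ntrk2 had r = −0.0362 and −0.30 in oxytocin and saline libraries labelled male, and in saline libraries labelled female Bdnf and Ntrk3 had 0.91 (permutation adjusted p = 0.0556) and Ntrk2 and Ntrk3 0.98 (adjusted p = 0.05). On that scale Ntrk2 and Ntrk3 had 0.51 in saline males and 0.56 in oxytocin females as labelled. With the first component removed the pooled r was −0.13 for Bdnf and Ntrk2, 0.47 for Bdnf and Ntrk3 and 0.27 for Ntrk2 and Ntrk3. Over 18 libraries these were −0.0914, 0.55 and 0.11 (in TPM −0.12, 0.45 and 0.43), the r to the component 0.88 (Bdnf), −0.26 (Ntrk2) and 0.34 (Ntrk3), and that of Ntrk2 to the library total 0.13. Left-out libraries gave 0.10 to 0.43 for Bdnf and Ntrk2, which passed only without oxytocin female 4 (permutation adjusted p = 0.0272), 0.49 to 0.60 for Bdnf and Ntrk3 and 0.61 to 0.77 for Ntrk2 and Ntrk3.

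Replicate numbers are shared between groups. Same-numbered oxytocin and saline libraries deviated together (r over 0.1) in 2 of 12 pairs and correlated best with their own number in 4 of 12. All of these were pairs labelled female. For the members, libraries numbered 6 averaged 0.37 above their group means in log2 CPM for Bdnf, 0.16 for Ntrk3 and 0.03 for Ntrk2. With the replicate block, Bdnf between labelled sexes had a log2 fold change of 0.32 (edgeR adjusted p = 0.0706). Bdnf and Ntrk3 then had a pooled r of 0.37 (permutation adjusted p = 0.172, with permutations that did not keep the block). Over all genes, edgeR called 24 in labelled males, 1 in labelled females, 54 on average, 0 for the difference and 34 between labelled sexes, DESeq2 160, 42, 356, 2 and 102, limma 125, 1, 190, 0 and 70, and the block 9 in labelled males. As coefficients of variation, counting of reads alone gives 4.59% beside 18.1% pooled within groups for Bdnf, and 3.96% beside 10.3% for Ntrk3. In oxytocin libraries labelled male Ntrk3 had 1.84%, under the value from counting. The share of counting in the spread was not tested.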
